A study of Mus musculus with 11 samples.

Results

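The genes described here are the mouse zinc finger genes whose symbol is Zfp followed by a number. Of 54347 genes in the count table, 364 rows with 362 symbols had such a name. Genes with a summed count of at least 300 over the 11 libraries were taken, without Zfp36, whose product is an RNA-binding protein of another zinc finger class. Members were thus chosen by name and by their summed count. This left 289 genes, and all 289 passed the low-count filter of the test. The sum decided membership, so how many of these genes were expressed is a property of the choice and not a result. Just inside the threshold lay Zfp92 with 301 counts, Zfp661 with 324 and Zfp938 with 326. Just outside it lay Zfp651 with 290, Zfp54 with 287 and Zfp775 with 273.

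RNA came from cells sorted by flow cytometry from lineage-depleted bone marrow of female C57BL/6NTac mice, with no age given in the sources used here. The groups were endomucin-positive (EMCN+) long-term haematopoietic stem cells (LT-HSCs, 4 libraries), EMCN- LT-HSCs (3 libraries) and granulocyte-monocyte progenitors (GMPs, 4 libraries). LT-HSCs were Lineage-, Sca-1+, c-Kit+ cells with CD150 and without CD48, and each library was amplified from a small number of sorted cells with a total RNA kit. The replicate number is the mouse, and the EMCN- library of mouse 3 was removed by the submitters for quality. Totals ran from 3.63 to 11.1 M estimated counts per library, 1 M being 1000000. The summed level of 8 LT-HSC markers was 1218 to 1416 counts per M counts (CPM) in EMCN+ LT-HSCs, 829 to 968 CPM in EMCN- LT-HSCs and 26.0 to 29.3 CPM in GMPs. The summed level of 7 GMP markers was 21.6 to 27.8 CPM in EMCN+ LT-HSCs, 20.5 to 30.8 CPM in EMCN- LT-HSCs and 15251 to 18579 CPM in GMPs, so each population carried the markers of its label. Megakaryocyte markers summed to 24.5 to 40.9 CPM in EMCN+ LT-HSCs, 67.7 to 106 CPM in EMCN- LT-HSCs and 11.4 to 23.7 CPM in GMPs. Endothelial markers summed to 31.8 to 37.8 CPM in EMCN+ LT-HSCs, 17.6 to 20.9 CPM in EMCN- LT-HSCs and 0.490 to 2.61 CPM in GMPs. The endothelial list includes Emcn, the gene of the protein used to sort the fractions, so its sum is not independent of the sort. Neutrophil and monocyte markers reached at most 2.74 and 6.78 CPM in LT-HSCs, against 115 to 520 and 353 to 476 CPM in GMPs. The part of these 4 lists in the results below was not tested. CPM use TMM factors, which ran from 1.10 to 1.31 in LT-HSC libraries and from 0.668 to 0.757 in GMP libraries.

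Proteins of this kind carry C2H2 zinc fingers, repeated units that each hold a zinc ion and together read a stretch of DNA, and fewer of them bind RNA or protein. Many also carry a KRAB box, which recruits the co-repressor KAP1 (Trim28), and through it the histone methyltransferase SETDB1, heterochromatin protein 1, the NuRD remodelling complex and DNA methylation. KRAB zinc finger genes lie in clusters of similar copies, have expanded fast in mammals, and are best known for silencing retroelements and for keeping imprinted regions methylated. A KRAB box was found by a profile search of the translated coding transcripts in 178 of the 289 genes. No match was found in 109, and the remaining 2 had no coding transcript. Finger number had a median of 11 and ran from 0 to 37, with medians of 12 in KRAB genes and 8 in the others.

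The promoter windows shown are the 250 bases before the RefSeq start (GRCm38.p6) of members with a large difference between LT-HSCs and GMPs. They set 2 genes that were higher in LT-HSCs (Zfp618 and Zfp827) beside 2 that were lower (Zfp605 and Zfp53). These were chosen because they differ in a short motif described further on, so they do not show how common it is. The window of Zfp692, another lower member, was also read, is not shown and lacks that motif. Zfp618 is at chr4:62965317-62965566, Zfp827 at chr8:79028187-79028436, Zfp605 at chr5:110109842-110110091 and Zfp53 at chr17:21488738-21488987, all on the plus strand. Capitals mark CCGGAAG, the core of sites bound by ETS transcription factors.
Zfp618: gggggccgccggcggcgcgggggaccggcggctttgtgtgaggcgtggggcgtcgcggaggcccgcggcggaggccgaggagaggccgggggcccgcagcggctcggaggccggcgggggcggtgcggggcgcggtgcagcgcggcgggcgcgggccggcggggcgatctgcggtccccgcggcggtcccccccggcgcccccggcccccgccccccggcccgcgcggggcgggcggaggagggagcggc
Zfp827: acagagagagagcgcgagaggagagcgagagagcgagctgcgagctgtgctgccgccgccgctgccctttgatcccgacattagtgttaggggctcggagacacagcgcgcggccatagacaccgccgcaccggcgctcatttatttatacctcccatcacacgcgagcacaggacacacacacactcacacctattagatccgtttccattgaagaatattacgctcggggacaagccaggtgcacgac
Zfp605: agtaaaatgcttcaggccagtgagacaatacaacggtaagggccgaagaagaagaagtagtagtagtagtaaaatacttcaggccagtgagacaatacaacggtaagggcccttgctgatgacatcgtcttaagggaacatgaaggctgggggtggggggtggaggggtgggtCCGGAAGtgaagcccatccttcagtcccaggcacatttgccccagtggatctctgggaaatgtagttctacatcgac
Zfp53: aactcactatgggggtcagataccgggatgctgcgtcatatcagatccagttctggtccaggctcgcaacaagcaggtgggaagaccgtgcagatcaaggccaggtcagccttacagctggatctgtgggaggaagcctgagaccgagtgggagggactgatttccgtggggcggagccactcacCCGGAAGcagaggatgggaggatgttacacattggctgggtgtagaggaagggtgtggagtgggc

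Most of these genes that differed between stem cells and GMPs were higher in the stem cells. In LT-HSCs against GMPs 140 of 289 members were higher (48.4%, against 32.5% of all 14915 genes tested) and 28 were lower (9.69%, against 29.9% of all genes tested), by edgeR's quasi-likelihood test with Benjamini-Hochberg adjusted p under 0.05. The remaining 121 did not pass. The median log2 change was 0.36 over members and 0.03 over all tested genes, and 213 members (73.7%) had a positive change. A log2 change past 1 was seen in 52 of the higher and a change past -1 in 9 of the lower members. Among all 14915 genes tested these numbers were 2925 and 2501. Large increases were thus no more common among members than among all tested genes, while large decreases were rarer. The central range was narrow, from -0.04 at the lower quartile to 0.79 at the upper, against -0.68 to 0.79 over all tested genes. Among the 11297 tested genes with the same minimum sum, 34.2% were higher and 34.1% lower, with a median of -0.01.

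With scaling by total counts alone, 257 members were higher and 5 lower (98.1% of the called members higher, against 83.3% with TMM factors). Under that scaling 60.8% of all tested genes were higher and 12.8% lower (82.6% of the called genes higher, against 52.1% with TMM factors), while the median of all genes moved to 0.81 and that of the members to 1.14. With upper-quartile factors the medians were 0.15 for all genes and 0.48 for members, with 161 members higher and 22 lower, against 36.6% and 26.4% of all tested genes. Set against the median of all genes, the members' median was therefore positive under each of these scalings. With a correction for transcript length and GC content 118 members were higher and 41 lower, against 32.1% and 28.7% of all genes in that fit, and the members' median was 0.22 against 0.07 for all genes. The members' transcripts had a median GC content of 44.6%, against 49.3% over all tested genes, and a median length of 3370 bases against 2740. In bulk samples a smaller number of expressing cells and less RNA per cell cannot be told apart.

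**Figure D1:**
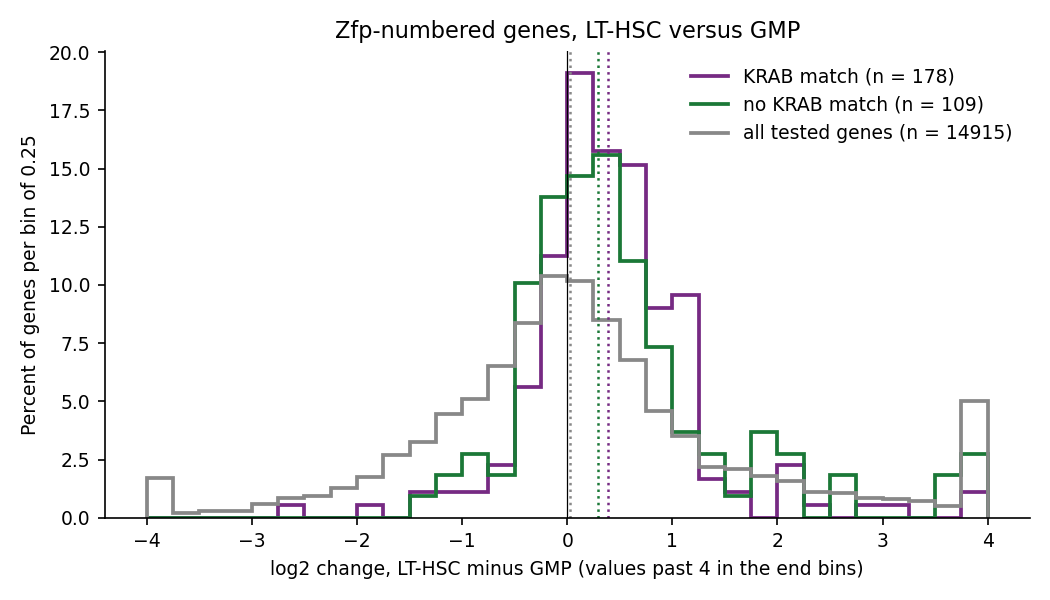
Distribution of log2 changes, LT-HSC minus GMP, as the percent of genes per bin, for members with a KRAB match, members without one and all tested genes. Dotted lines mark the medians of 0.39, 0.29 and 0.03, and values past 4 are drawn in the end bins.

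Without a correction for length and GC content both structural classes were shifted the same way, beside 32.5% higher and 29.9% lower of all tested genes. Of the KRAB genes 83 of 178 were higher (46.6%) and 15 lower (8.43%), with a median of 0.39. Of the genes without a KRAB match 56 of 109 were higher (51.4%) and 13 lower (11.9%), with a median of 0.29. KRAB genes had a median transcript GC content of 41.3% and the others 51.1%. With the length and GC correction 78 KRAB genes were higher and 14 lower (median 0.35), while 39 genes without KRAB were higher and 27 lower (median 0.07, as for all genes). In that fit 32.1% of all genes were higher and 28.7% lower, and the genes without KRAB lay near these shares. No test of the difference between the classes was made.

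Members were also grouped by their number of fingers, with no test between the bins. Of 58 members with 16 or more fingers 32 were higher and 2 lower, with a median of 0.46. Of 96 members with 11 to 15 fingers 47 were higher and 10 lower, with a median of 0.39. Of 87 with 6 to 10 fingers 36 were higher and 8 lower, with a median of 0.25. Of 46 members with 0 to 5 fingers 24 were higher and 8 lower, with a median of 0.27. From few to many fingers, 52.2%, 41.4%, 49% and 55.2% were higher, with no steady rise, against 32.5% of all tested genes. In the same order 17.4%, 9.2%, 10.4% and 3.45% were lower, against 29.9%. Split into 3 bins of summed count, 45.8%, 45.8% and 53.6% of members were higher, and 8.33%, 9.38% and 11.3% were lower, in the order of low to high counts. The shift was present in each bin, with medians of 0.58, 0.31 and 0.31.

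Near-identical copies make the assignment of reads uncertain in this family. Members were therefore split by the percent of their 31-base words that also occur in a transcript of another gene. Of 227 members with at most 20% shared words 120 were higher and 20 lower, with a median of 0.37. Of 62 members with more shared words 20 were higher and 8 lower, with a median of 0.21. The share of higher members was 52.9% with few shared words and 32.3% with more, the second being near that of all tested genes (32.5%). The lower shares were 8.81% and 12.9%, both below the 29.9% of all tested genes.

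**Figure D2:**
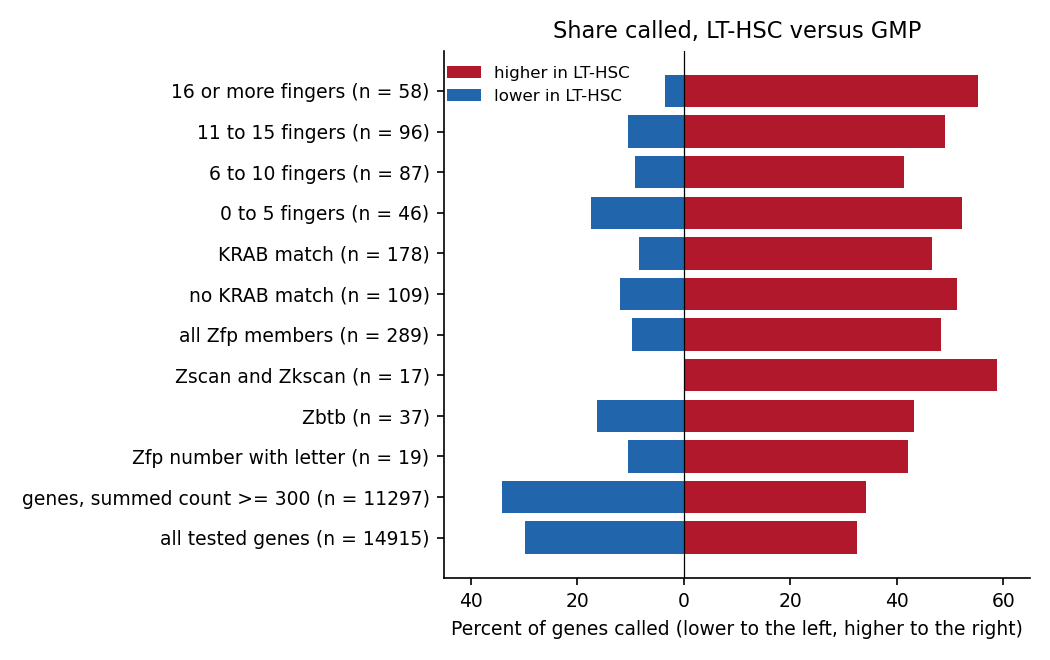
Percent of genes called higher (to the right) and lower (to the left) in LT-HSCs against GMPs, by finger number, KRAB match, related families and all tested genes. The lower share was 3.45% among members with 16 or more fingers and 29.9% among all tested genes.

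Related zinc finger families with other names were read in the same way, under the same minimum sum. Of 19 genes named Zfp with a number and a letter 8 were higher and 2 lower in LT-HSCs, with a median of 0.27. Of 17 Zscan and Zkscan genes, whose products carry a SCAN dimerisation domain, 10 were higher and 0 lower, with a median of 0.63. Of 37 Zbtb genes, whose products carry a BTB domain, 16 were higher and 6 lower, with a median of 0.35. These shares stand beside the same 32.5% and 29.9% of all tested genes, and the families are small.

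The members together took a larger part of the counts in stem cells than in GMPs, by a margin that depends on the scaling. Their summed level was 7668, 7916, 7809 and 8065 CPM in EMCN+ LT-HSCs and 7814, 7722 and 7962 CPM in EMCN- LT-HSCs, against 6480, 5988, 6444 and 6472 CPM in GMPs. All 7 LT-HSC libraries lay above all 4 GMP libraries. As a share of all estimated counts, with no TMM factor, the members took 0.940% to 1.02% in EMCN+ LT-HSCs and 0.846% to 0.958% in EMCN- LT-HSCs. In GMPs they took 0.399% to 0.489%. With total-count scaling the median log2 change of all tested genes was itself 0.81, and 60.8% were called higher. A rise of this raw share is thus not particular to the members. KRAB genes summed to 3344 ± 119 CPM (SD, n = 4) in EMCN+ LT-HSCs and 3426 ± 83.3 CPM (n = 3) in EMCN- LT-HSCs, against 2732 ± 158 CPM (n = 4) in GMPs.

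**Figure D3:**
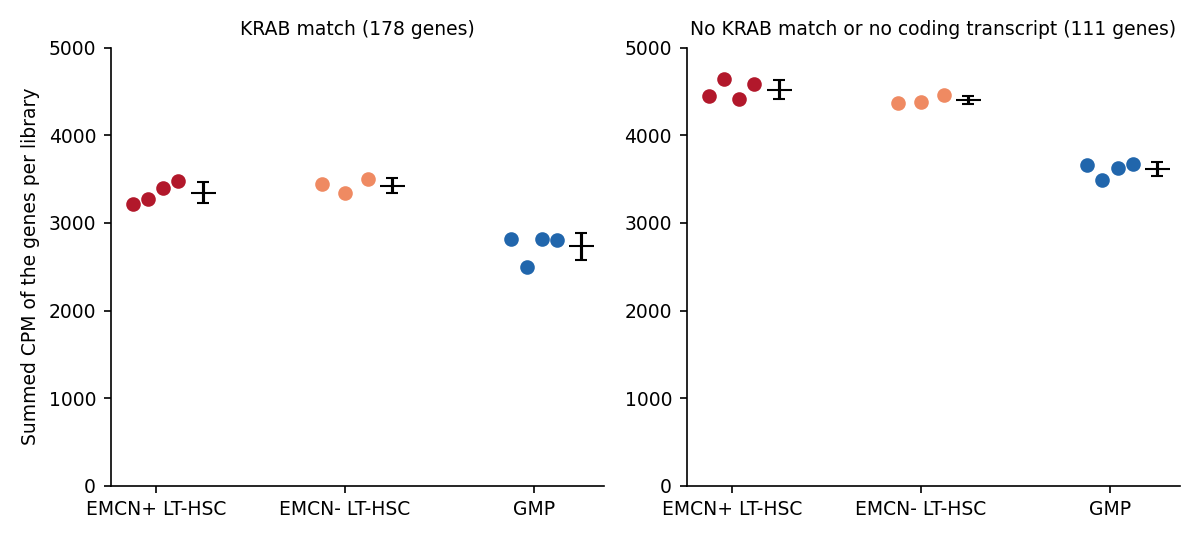
Summed CPM per library of the members with a KRAB match (left) and of the others (right) in EMCN+ LT-HSCs, EMCN- LT-HSCs and GMPs. Points are libraries, and the black marks are the mean and SD. All LT-HSC points lie above all GMP points in both panels.

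Of the 10 named members with the largest increases in LT-HSCs 7 had no KRAB match. The same held for 109 of all 289 members and for 56 of the 140 higher ones. These 10, and the 10 decreases below, were named only where LT-HSC and GMP libraries did not overlap. Their lack of overlap is thus a property of the choice and not a result. Zfp532, whose human counterpart joins ZNF687, ZNF592 and ZMYND8 in a chromatin complex, stood at 43.3, 48.2, 49.2 and 57.3 CPM in EMCN+ LT-HSCs and 40.2, 42.3 and 49.8 CPM in EMCN- LT-HSCs. In GMPs it stood at 0.158, 0.163, 0 and 1.49 CPM. The log2 change was 6.65 ± 0.34 (SE, edgeR adjusted p = 5.11e-11). The GMP level rested on 10 counts, 8 of them in replicate 4, and without that library the log2 change was 8.43. Its partner genes in that complex differed less. Zfp592 changed by 0.59 ± 0.12 (edgeR adjusted p = 0.000166), but by 0.070 with the length and GC correction (adjusted p = 0.598). Zfp687 had -0.04 ± 0.11 and did not pass, though it did with that correction (-0.49, adjusted p = 0.000468), and its sign turned under other scalings. Of the 31-base words of Zfp532 27.2% occur in another gene.

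Zfp831, which has 2 fingers by the pattern used, stood at 73.8, 80.8, 62.5 and 73.9 CPM in EMCN+ LT-HSCs and 50.8, 64.3 and 71.2 CPM in EMCN- LT-HSCs. In GMPs it had 1.26, 1.8, 4.78 and 3.36 CPM. No LT-HSC library came near a GMP library, and the log2 change was 4.67 ± 0.24 (edgeR adjusted p = 2.39e-11). Zfp467, a factor known in the choice between fat and bone cells, had 41.8, 44.6, 52.4 and 44.2 CPM in EMCN+ LT-HSCs and 32.4, 38.4 and 33.4 CPM in EMCN- LT-HSCs, against 3.79, 3.43, 2.50 and 2.99 CPM in GMPs. Its log2 change was 3.65 ± 0.16 (edgeR adjusted p = 5.02e-14). The groups were again apart in every library, as the rule for named members asked.

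Zfp618 and the KRAB gene Zfp612 were nearly undetected in GMPs. Both reached the minimum sum and the mean of 5 CPM through their LT-HSC libraries, as Zfp532 did. With GMP levels near 0, such genes could be named only as higher. Zfp618 ran from 6.35 to 13.1 CPM (median 10.3) over the 7 LT-HSC libraries, against 0, 0.326, 0 and 0.746 CPM in GMPs, with a log2 change of 5.12 ± 0.49 (edgeR adjusted p = 1.13e-08). Zfp612 had 14.6, 10.8, 14.9 and 14.9 CPM in EMCN+ LT-HSCs and 5.51, 7.27 and 7.75 CPM in EMCN- LT-HSCs, against 0, 1.14, 0 and 0 CPM in GMPs. Its log2 change was 4.95 ± 0.56 (edgeR adjusted p = 6.76e-07). The 7 counts in GMP replicate 2 were all the counts Zfp612 had in GMPs. The fitted log2 change was 9.19 without that library, a value that depends on the prior count. Without GMP replicate 4 that of Zfp618 was 6.20.

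The other members with large increases were Zfp827 (3.63 ± 0.33 on the log2 scale), known for recruiting the NuRD complex to telomeres, the KRAB genes Zfp93 (3.07 ± 0.31) and Zfp248 (2.86 ± 0.30), Zfp462 (2.67 ± 0.26) and Zfp608 (2.57 ± 0.13). By edgeR the adjusted p of these 5 lay between 3.46e-13 (Zfp608) and 2.13e-07 (Zfp827). Zfp93 shares 29.9% of its 31-base words with other genes. Zfp608 ran from 193 to 308 CPM (median 221) in LT-HSCs, against 38.2, 32.2, 41.9 and 48.9 CPM in GMPs. It was thus abundant in stem cells and still well above 0 in GMPs, unlike Zfp532. Outside these named genes, the member nearest the threshold, Zfp92, had 299 counts in LT-HSCs and 2 in GMPs, a ratio of CPM of 59.9 (exact 95% counting interval 16.4 to 497). It passed the filters through its LT-HSC libraries.

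Decreases were fewer and smaller. Of the 10 named ones 6 were of KRAB genes, which made up 178 of all 289 members and 15 of the 28 lower members. With 7 LT-HSC and 4 GMP libraries, the mean of 5 CPM asks for a higher level from a gene detected in GMPs alone. Zfp568, a KRAB protein that represses the placental Igf2 transcript, had 11, 12.8, 10.9 and 15.6 CPM in EMCN+ LT-HSCs and 19.9, 16.1 and 19.5 CPM in EMCN- LT-HSCs. In GMPs it had 55.1, 46.8, 41 and 59 CPM, above every LT-HSC library. The log2 change was -1.77 ± 0.13 (edgeR adjusted p = 1.79e-10). Zfp995 changed most, by -2.56 ± 0.32 (edgeR adjusted p = 5.03e-07). It ran from 0.446 to 2.74 CPM (median 1.95) in LT-HSCs, against 9.70 to 12.6 CPM in GMPs, and 26.8% of its 31-base words occur in another gene.

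Zfp35 changed by -1.19 ± 0.11, Zfp706 by -1.09 ± 0.09, Zfp605 by -1.05 ± 0.17, Zfp932 by -1.0 ± 0.15, Zfp53 by -0.99 ± 0.14, Zfp692 by -0.97 ± 0.25 and Zfp131 by -0.97 ± 0.11. By edgeR the adjusted p of these 7 lay between 5.88e-10 (Zfp706) and 0.00229 (Zfp692). In each gene the LT-HSC and GMP libraries did not overlap, which the rule for naming them required. With scaling by total counts the changes of Zfp605 (-0.26), Zfp932 (-0.22), Zfp53 (-0.20), Zfp692 (-0.19) and Zfp131 (-0.19) kept their sign and did not pass. Zfp967 changed by -1.28 ± 0.21 (edgeR adjusted p = 1.59e-05), but 100% of its 31-base words occur in another gene, so its reads cannot be assigned with confidence. Over all members 97 had every LT-HSC library above every GMP library (33.6%, against 25% of all tested genes) and 18 had every one below (6.23%, against 23%).

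**Figure D4:**
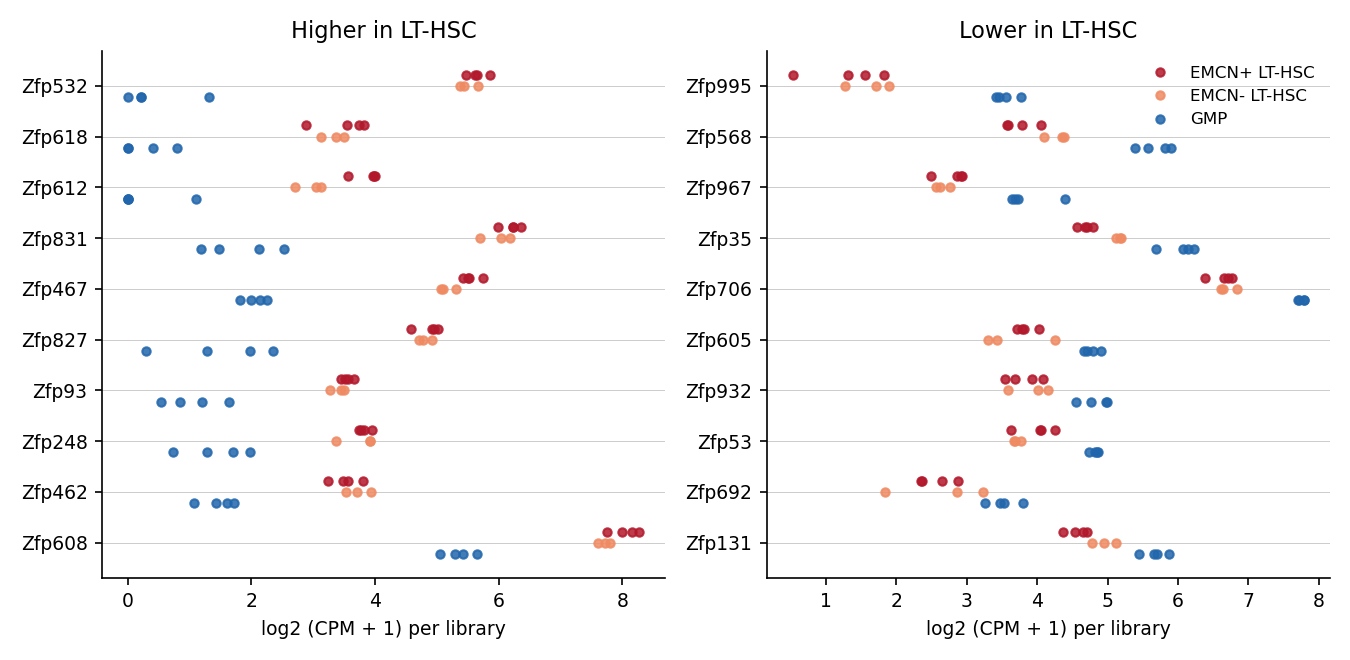
Level per library, as log2 (CPM + 1), of the 10 members with the largest increases (left) and the 10 with the largest decreases (right) among those with a mean of at least 5 CPM and no overlap between LT-HSC and GMP libraries. Genes such as Zfp532, Zfp618 and Zfp612 sit near 0 in GMPs, while the genes that were lower, Zfp995 apart, kept at least 2.58 CPM in every LT-HSC library.

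The most abundant members, compared per length of transcript, were mostly genes with few fingers, 7 of the 10 highest having 5 or fewer. Zfp207, a kinetochore protein that brings BUB3 to chromosomes, had the highest mean level, 107 CPM per kb, against a median of 4.96 over the members. In CPM it stood at 127, 113, 161 and 151 in EMCN+ LT-HSCs and 162, 136 and 153 in EMCN- LT-HSCs, against 226, 204, 206 and 204 in GMPs. It was lower in LT-HSCs in every library, with a log2 change of -0.55 ± 0.10 (edgeR adjusted p = 4e-05), though 0.23 with total-count scaling and -0.14 (adjusted p = 0.199) with the length and GC correction. Zfp740 followed at 50.9 CPM per kb and was higher in LT-HSCs (0.91 ± 0.10, edgeR adjusted p = 1.23e-07). Zfp706 (32.1 CPM per kb), Zfp330 (29.1), Zfp146 (27.7), Zfp608 (27.5), Zfp106 (26.3), Zfp869 (23.2), Zfp91 (23) and Zfp451 (22.2) completed the 10 highest. Of these 10 members 5 were higher (Zfp740, Zfp146, Zfp608, Zfp106 and Zfp869), 3 lower (Zfp207, Zfp706 and Zfp330) and 2 not called. The signs of Zfp330 and Zfp106 turned with the length and GC correction, and that of Zfp330 also with total-count scaling. Zfp869 was the KRAB gene among them (0.81 ± 0.11, edgeR adjusted p = 2.17e-06).

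Of 6 members listed for blood or lymphoid roles 4 were higher in LT-HSCs and 0 lower. This list and the role lists that follow are small, and their counts stand beside 32.5% higher and 29.9% lower of all tested genes. Zfp521, a co-factor known in immature blood cells, ran from 42.2 to 59.6 CPM (median 47.8) in LT-HSCs, against 10.9, 8.16, 18.4 and 9.52 CPM in GMPs, with a log2 change of 2.12 ± 0.19 (edgeR adjusted p = 5.15e-08). Zfp318, needed for IgD on B cells, changed by 1.38 ± 0.16 and the KRAB gene Zfp30 by 2.08 ± 0.49 (edgeR adjusted p = 1.31e-07 and 0.000911). Without GMP replicate 1 the change of Zfp30 was 2.73. Zfp608 was the fourth. Zfp335, needed for T cell maturation, changed by 0.14 ± 0.14 and did not pass (edgeR adjusted p = 0.378), but passed at 0.93 with total-count scaling (adjusted p = 9.6e-06) and at -0.49 with the length and GC correction (adjusted p = 0.00353). Zfp384, whose human counterpart is a fusion partner in lymphoblastic leukaemia, had -0.16 ± 0.09 and did not pass (adjusted p = 0.133), and its sign turned with total-count scaling, while it passed with the length and GC correction (-0.30, adjusted p = 0.00714). Zfp423 had 47 counts in all and stood below the minimum sum.

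The repressors of retroelements and imprinted genes did not move one way. Zfp445, which acts with ZFP57 at imprinted regions, had 74.1 to 84.5 CPM (median 79.4) in LT-HSCs, against 57.7, 55.5, 62.6 and 70.7 CPM in GMPs, a log2 change of 0.37 ± 0.09 (edgeR adjusted p = 0.00156) that did not pass with the length and GC correction (0.09, adjusted p = 0.407). Zfp809, which silences murine leukaemia virus in embryonic cells, changed by 0.64 ± 0.18 (edgeR adjusted p = 0.00366). Its groups overlapped, with 18.8 to 32.2 CPM in LT-HSCs and 11.8 to 23 CPM in GMPs. Zfp568 and Zfp932, a repressor of endogenous retroviruses, were lower. Zfp708, a repressor of a mouse retroelement, had 1.19 ± 0.56 and did not pass by edgeR (adjusted p = 0.0840), and 95.6% of its 31-base words are shared. It passed with DESeq2 (0.0182), with no low-count filter (0.000429), with total-count scaling (0.00604) and without GMP replicate 4 (0.0280), and its change ran from 0.78 to 1.56 with 1 library left out. Zfp57 and Zfp819 had 142 and 22 counts in all and stood below the minimum sum.

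Of 9 partners of chromatin complexes 5 were higher and 2 lower in LT-HSCs (55.6% and 22.2%, against 32.5% and 29.9% of all tested genes). Besides Zfp532, Zfp827 and Zfp592 these were Zfp462 and Zfp644, which both work with the G9a and GLP methyltransferases. Zfp462 had 8.47 to 14.3 CPM (median 10.7) in LT-HSCs, against 1.10, 2.28, 2.05 and 1.68 CPM in GMPs. Zfp644 changed by 0.34 ± 0.11 (edgeR adjusted p = 0.00798), with overlapping groups and 0.11 (adjusted p = 0.309) under the length and GC correction. Zfp217, whose human counterpart is an oncogene that binds CoREST, changed by -0.38 ± 0.09, and Zfp277, a partner of Polycomb, by -0.44 ± 0.13 (edgeR adjusted p = 0.00104 and 0.00595). Both signs turned with total-count scaling, to 0.40 and 0.34, and Zfp277 did not pass without GMP replicate 4 (adjusted p = 0.054) or with the length and GC correction (0.116). Zfp410, an activator of Chd4, had -0.26 ± 0.15 and did not pass (edgeR adjusted p = 0.135, and 0.0308 without GMP replicate 4).

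Of 5 general transcription factors Zfp148 (0.67 ± 0.09), Zfp281 (0.71 ± 0.13) and Zfp219 (0.64 ± 0.13) were higher in LT-HSCs and Zfp131 was lower. Zfp143, an activator of RNA polymerase II and III promoters, had 0.19 ± 0.15 and did not pass (edgeR adjusted p = 0.281). The adjusted p values of the other 4 ran from 1.92e-07 for Zfp131 to 0.000228 for Zfp219 by edgeR. The change of Zfp219 did not pass with the length and GC correction (0.14, adjusted p = 0.347).

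Among 7 members that act on RNA or the ribosome 3 were higher and 1 lower (42.9% and 14.3%, against 32.5% and 29.9% of all tested genes). Zfp106 (0.28 ± 0.09), Zfp346, a binder of double-stranded RNA (0.52 ± 0.17), and Zfp598, a ubiquitin ligase of collided ribosomes (0.37 ± 0.15), were higher, with edgeR adjusted p values of 0.0107, 0.0124 and 0.0330. Zfp598 did not pass without EMCN+ replicate 2, EMCN- replicate 1 or 2, or GMP replicate 2, 3 or 4 (adjusted p from 0.0532 to 0.0939), and its sign and that of Zfp106 turned with the length and GC correction. Zfp593, a factor of the large ribosomal subunit, was lower (-0.90 ± 0.20, edgeR adjusted p = 0.000503), but did not pass with total-count scaling (-0.11, adjusted p = 0.635), and 71.5% of its 31-base words are shared. Zfp326 (0.089 ± 0.17), Zfp622 (-0.21 ± 0.13) and Zfp830 (-0.32 ± 0.14) did not pass, and the signs of Zfp622 and Zfp830 turned with total-count scaling. Zfp830 (edgeR adjusted p = 0.0545) passed when EMCN+ replicate 1, EMCN- replicate 1 or 2, or GMP replicate 1 was left out (0.0186 to 0.0496), and Zfp622 without EMCN- replicate 2 (0.0460). Of the members listed for ubiquitin and SUMO, the ubiquitin ligase Zfp91 (0.08 ± 0.09) and the SUMO ligase Zfp451 (0.25 ± 0.12) did not pass, but Zfp451 did when EMCN+ replicate 1, EMCN- replicate 1 or GMP replicate 4 was absent (0.0426 to 0.0469) and with the mouse as a block (0.00867). Zfp367, listed for cell division, changed by 0.32 ± 0.12 (edgeR adjusted p = 0.0271), and did not pass when GMP replicate 1, 3 or 4 or EMCN- replicate 1 was left out (0.0507 to 0.108).

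Of 45 listed cofactors, the partners through which KRAB proteins repress, 44 were tested. In LT-HSCs 18 were higher and 15 lower (40.9% and 34.1%), near the 34.2% and 34.1% of all genes with the same minimum sum, with a median of 0.13. Trim28, the gene of KAP1, had 149 to 227 CPM in LT-HSCs and 160 to 187 CPM in GMPs, a log2 change of 0.10 ± 0.11 that did not pass (edgeR adjusted p = 0.411). Setdb1 changed by -0.35 ± 0.12 (edgeR adjusted p = 0.0161). Of 13 NuRD genes among them 6 were higher, such as Chd3 (1.60 ± 0.12) and Mta3 (1.2 ± 0.12), and 3 lower, Rbbp4 (-1.05 ± 0.08), Mbd2 (-0.43 ± 0.10) and Mbd3 (-0.43 ± 0.11). Uhrf1 (-1.05 ± 0.10), which guides maintenance DNA methylation, was lower. By edgeR the adjusted p of these 6 lay between 2.59e-10 (Chd3) and 0.00212 (Mbd3).

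The shift was not confined to clusters, but it was uneven between chromosomes. Of 289 members 118 lay in 13 clusters of at least 5 members with gaps under 500 kb, and 171 lay in none. The unclustered members had 78 higher and 17 lower in LT-HSCs, with a median of 0.27. On chromosome 7, which holds 72 members, 39 were higher and 3 lower, with a median of 0.49. On chromosome 2 3 of 17 members were higher and 3 lower, with a median of -0.13. Chromosome 15 had 2 of 9 higher and 1 lower, with a median of 0.08. Chromosome 18 had 4 of 10 higher and 1 lower, also with a median of 0.08. These counts, and those of the clusters below, stand beside 32.5% higher and 29.9% lower of all tested genes. The cluster at chr7:29768552-30169750 (GRCm38) had 9 higher and 1 lower of 13 members. The lower one was Zfp568, which lies at chr7:29983955-30028282 among neighbours that were higher or not called. In the cluster at chr17:21008903-23564238, with 20 members that all carry KRAB, 8 were higher and 4 lower, among them Zfp995 and Zfp53. In that at chr13:67038596-67827002, with 17 KRAB members, 7 were higher and 1 lower. Members of one cluster share sequence, so these counts are not independent.

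Promoter windows of 250 bases were matched for 235 members and for 16517 protein-coding genes in all, and 197 of the members' windows ended within 100 bases of the GENCODE start. The members' windows held a median of 10 CG dinucleotides, 8 in KRAB members and 14 in the others, against 16 in the windows of tested genes and 10 in all windows. The motif CCGGAAG, searched on both strands, was in 17.4% of the members' windows, against 14.7% of the 9474 windows of tested genes and 9.54% of all windows. It was in 9 of 117 windows of members higher in LT-HSCs (7.69%), in 10 of 20 of members that were lower (50%) and in 22 of 98 of those not called (22.4%). Among all tested genes with a window it was in 9.3% of those higher, 18.4% of those lower and 17.1% of those not called. The windows of Zfp605 and Zfp53 shown above hold it once each, and those of Zfp618 and Zfp827 do not. That of Zfp692, a lower member not shown, does not hold it either. Read the other way, 9 of 41 members with the motif were higher and 10 lower (median 0.01), against 108 higher and 10 lower of 194 without it (median 0.45). Of 1389 tested genes with the motif 325 were higher and 549 lower (median -0.14). Of 8085 tested genes without it 3168 were higher and 2429 lower (median 0.12). Fewer higher genes among those with the motif was thus not particular to the members. The sequence ACTACAATT, part of the site bound by ZFP143, was in 3.83% of the members' windows and 0.539% of all windows, and AAGATGGCG, a YY1 site, in 0.851% and 0.714%. These motifs were chosen with the changes known, and a match is a description of letters and not a site in use.

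The shift against GMPs was present in both LT-HSC fractions. In EMCN+ LT-HSCs against GMPs 129 members were higher (44.6%, against 31.9% of all tested genes) and 32 lower (11.1%, against 29.4%), with a median of 0.35. In EMCN- LT-HSCs against GMPs 122 were higher (42.2%, against 28.3%) and 20 lower (6.92%, against 24.4%), with a median of 0.36. Both comparisons use the same 4 GMP libraries. Of the members 108 were called higher in both and 19 lower in both, and none was called in opposite directions. Under total-count scaling the counts were 251 higher and 5 lower in EMCN+ and 248 higher and 5 lower in EMCN- LT-HSCs. That scaling put 60.2% of all tested genes higher and 12.6% lower in EMCN+, and 55% higher and 9.88% lower in EMCN- LT-HSCs.

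Between the fractions few members differed. In EMCN+ against EMCN- LT-HSCs 1 of 289 members was higher (0.346%, against 0.771% of all tested genes) and 0 were lower (against 1.19%), by edgeR's quasi-likelihood test with Benjamini-Hochberg adjustment. DESeq2 and limma-voom gave the same counts. At an unadjusted p under 0.05 there were 11 higher and 13 lower members (8.3% of members, against 13.9% of all tested genes). The median log2 change was -0.02 over members and 0.00 over all tested genes. A missed threshold does not show equal levels. In a fit of the 6 libraries of mice 1, 2 and 4, which gave both fractions, with the mouse as a block, 5 members were higher and 1 lower, against 2.83% and 3.93% of the 13435 genes tested in that fit. The mouse as a block in all 11 libraries left 1 member higher and 0 lower. In the fit of mice 1, 2 and 4 the higher members were Zfp287 (1.02), Zfp612 (0.95), Zfp608 (0.43), Zfp275 (0.41) and Zfp652 (0.33) on the log2 scale. The lower member of that fit was Zfp35 (-0.54).

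The called member was Zfp287 (ENSMUSG00000005267), a KRAB gene with 14 fingers at chr11:62700356-62731905 (GRCm38). It had 13.5, 13.9, 18.4 and 16.8 CPM in EMCN+ LT-HSCs against 6.27, 7.27 and 7.99 CPM in EMCN- LT-HSCs, with GMPs at 1.58, 2.45, 1.82 and 2.43 CPM. The 3 groups did not overlap. The log2 change between the fractions was 1.13 ± 0.24 (edgeR adjusted p = 0.0162). It did not pass without EMCN- replicate 1 (1.04, adjusted p = 0.132) or without EMCN- replicate 2 (1.13, adjusted p = 0.0575).

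The members with the next smallest p were Zfp35, Zfp568 and Zfp275. Zfp35 had 25.1, 22.7, 26.7 and 24.6 CPM in EMCN+ LT-HSCs against 33.7, 35.0 and 35.7 CPM in EMCN- LT-HSCs, and GMPs lay above both at 50.8 to 73.6 CPM. Its log2 change was -0.49 ± 0.14 (edgeR adjusted p = 0.0683), and it passed without GMP replicate 3 (adjusted p = 0.0439) and with protein-coding genes alone (0.0355). Zfp568 had -0.57 ± 0.17 (edgeR adjusted p = 0.104), with its 4 EMCN+ libraries below its 3 EMCN- libraries and both below GMPs. The X-linked Zfp275 had 0.47 ± 0.14 (edgeR adjusted p = 0.105), with 42.3 to 52.9 CPM in EMCN+ LT-HSCs, 33.4 to 36.0 CPM in EMCN- LT-HSCs and 9.31 to 14.4 CPM in GMPs. In each of these 4 genes the EMCN- libraries lay between the EMCN+ and the GMP libraries. Over all members 11 had every EMCN+ library above every EMCN- library and 14 had every one below (3.81% and 4.84%, against 7.25% and 6.99% of all tested genes).

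**Figure D5:**
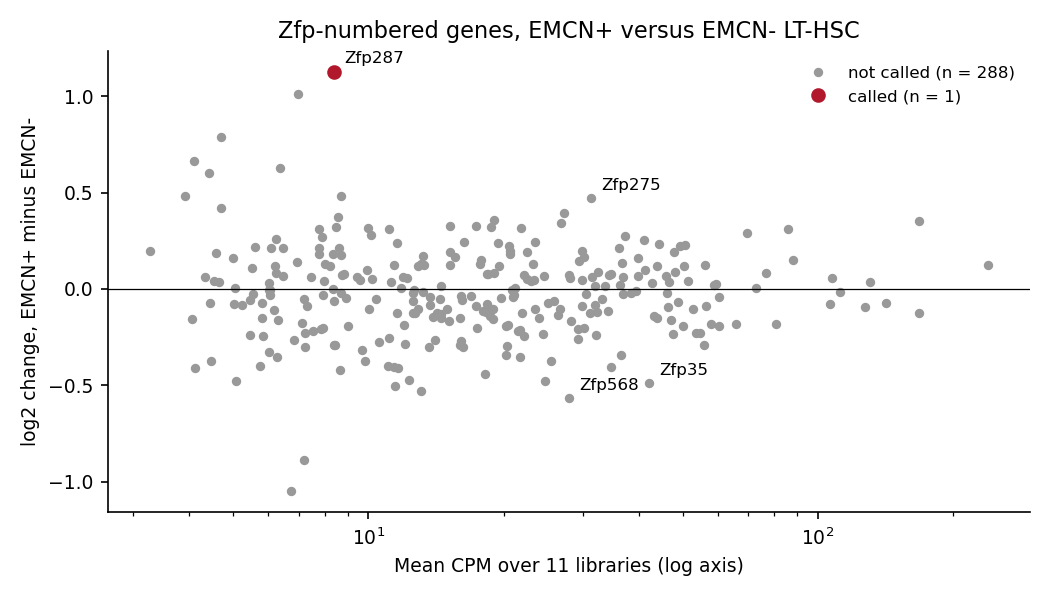
Log2 change, EMCN+ minus EMCN- LT-HSCs, against the mean CPM over 11 libraries (log axis) for the 289 members. Zfp287 at 1.13 is the called member (red), and Zfp35, Zfp568 and Zfp275 had the next smallest p.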

How the data were processed

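The authors deposited estimated counts for each gene. Per the submitters' processing notes, Salmon and cutadapt were used, with versions, genome build and annotation not given in the sources used here. The deposited estimated counts are whole numbers. They were rounded before each fit as a safeguard. Identifiers were matched to GENCODE M21 (GRCm38), with 54094 of 54347 matching without version. How the authors' counting split reads of near-identical copies is not known, so 31-base words shared with other genes are given.

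Genes were kept with filterByExpr at a minimum count of 10 (14915 genes). All 11 libraries were fitted together in edgeR 4.0.16 (R 4.3.3) with TMM factors and robust quasi-likelihood dispersions, without a mouse block, with Benjamini-Hochberg adjustment over all genes and a threshold of 0.05. The LT-HSC contrast weighted 7 libraries equally. The fit was tested on simulated data. Alternatives used limma 3.58.1 (voom) and DESeq2 1.42.0, other factors and filters, mouse blocks, and each library left out. No set test was run. A count of 0 allows up to 3 counts, and counting intervals cover counting error only.

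The mouse number pairs the libraries, since same-numbered libraries come from the same animal per the labels. Deviations from the group means correlated at 0.165 to 0.223 in 3 same-mouse pairs of LT-HSC libraries, against -0.246 to 0.190 in 9 pairs from different mice. For LT-HSC with GMP libraries they correlated at -0.0606 to 0.150 in 7 same-mouse pairs, against -0.172 to 0.160 in 21 others. The ranges overlapped, so the pairing rests on the labels.

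KRAB boxes were found with HMMER 3.4, using a profile from 114 windows of 40 residues and an E value limit of 0.001, and fingers by the pattern of 2 cysteines and 2 histidines, both in translated GENCODE M21 coding transcripts. Promoter windows came from RefSeq (GRCm38.p6), the start nearest the GENCODE start being used. Named genes were up to 10 per direction with the largest log2 change among called members with a mean of at least 5 CPM and no overlap between LT-HSC and GMP libraries, the called members and the 4 with the smallest p between the fractions, the 10 with the highest CPM per kb, listed roles, and those nearest the threshold. Zfp652 was named, and the NuRD genes among the cofactors counted, after their values were seen. The members and lists were chosen with earlier results of these data known.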

Additional observations from a re-analysis of the deposited data

Results flagged for a closer look

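In 110 groups of 4 libraries of named members the gap of the highest or lowest library was compared with the range of its group. Chance flags about 1 in 20 groups, and 7 were flagged. In GMPs Zfp532 stood at 1.49 CPM in replicate 4 against 0 to 0.163 CPM in the others, and Zfp612 at 1.14 CPM in replicate 2 against 0 in the others. Zfp967 stood at 20.03 CPM in GMP replicate 3 against 11.5 to 12.3 CPM, and Zfp207 at 226 CPM in GMP replicate 1 against 204 to 206 CPM. In EMCN+ LT-HSCs Zfp612 stood at 10.8 CPM in replicate 2 against 14.6 to 14.9 CPM. Zfp869 stood at 47.9 CPM in EMCN+ replicate 3 against 41.3 to 42.3 CPM, and Zfp410 at 20.2 CPM in EMCN+ replicate 2 against 28.1 to 29.3 CPM.

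The change of Zfp287 against GMPs was larger in EMCN+ than in EMCN- LT-HSCs by 1.13 on the log2 scale, which is the tested difference between the fractions (edgeR adjusted p = 0.0162). Both changes use the same GMP libraries.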

How the results depend on the processing

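The mouse as a replicate block in all 11 libraries gave 145 members higher and 29 lower in LT-HSCs against GMPs. In that fit 4912 of all 14915 tested genes were higher and 4543 lower. The block moved the members' median against GMPs in EMCN- LT-HSCs to 0.39. In the 6 LT-HSC libraries of mice 1, 2 and 4 the block gave 5 members higher and 1 lower between the fractions. The shares of all genes in that fit were 2.83% and 3.93%. Among named genes the block also changed the call of Zfp451 (edgeR adjusted p = 0.00867 in all 11 libraries). The replicate block alone changed no other call of a named gene. The 7 LT-HSC libraries alone gave 2 higher members between the fractions, where 151 of all 13717 tested genes were higher. Protein-coding genes alone gave 1 lower member between the fractions, where 276 of all 11898 tested genes were lower. With protein-coding genes alone the members' medians were 0.32 for LT-HSCs and 0.33 for EMCN- LT-HSCs against GMPs.

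With total-count scaling 257 members were higher and 5 lower in LT-HSCs against GMPs (median 1.14), 251 and 5 in EMCN+ (1.18) and 248 and 5 in EMCN- LT-HSCs (1.08), with a median of 0.086 between the fractions. The signs of Zfp207 (0.23), Zfp330 (0.45), Zfp384 (0.62), Zfp217 (0.40), Zfp410 (0.52), Zfp687 (0.74), Zfp277 (0.34), Zfp622 (0.57) and Zfp830 (0.47) turned. The median of all genes moved with it, which the scaling brings by construction. Upper-quartile factors gave medians of 0.48, 0.47 and 0.47 for all, EMCN+ and EMCN- LT-HSCs against GMPs, and 0.081 for Zfp687. With these factors 21 members were lower in EMCN+ LT-HSCs, beside 3868 of all 14915 tested genes.

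The length and GC correction gave medians of 0.22, 0.20 and 0.28 for the same 3 comparisons. With it 32 members were lower in EMCN- LT-HSCs, beside 3537 of all 14900 tested genes. The signs of Zfp330 (0.075), Zfp106 (-0.22), Zfp91 (-0.27), Zfp335 (-0.49), Zfp598 (-0.094) and Zfp830 (0.064) turned. With the replicate block added, the medians were 0.22, 0.20 and 0.31, with -0.059 between the fractions, and these genes stood at 0.060, -0.22, -0.28, -0.47, -0.12 and 0.048 in the same order. The cause was not tested.

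A minimum sum of 100 gave medians of 0.40 and 0.42 for EMCN+ and EMCN- LT-HSCs against GMPs. A minimum of 1000, which leaves fewer members, gave 91, 84 and 81 higher for all, EMCN+ and EMCN- LT-HSCs. It gave a median of 0.33 for all, and 0 higher between the fractions. These counts stand without the share of all genes at that minimum and do not show an excess. Leaving out each library gave 119 to 139 higher members in LT-HSCs against GMPs, with medians of 0.31 to 0.37, and medians of 0.33 to 0.38 in EMCN- LT-HSCs. Without GMP replicate 2, with 119 higher members, 4525 of all 14654 tested genes were higher. Without EMCN- replicate 4, with 139 higher members, 4869 of all 15426 tested genes were higher. Between the fractions it gave 0 to 1 higher and 0 to 1 lower. Without GMP replicate 1 Zfp687 turned to 0.040 (range -0.094 to 0.040). The 3 EMCN- libraries held 3.63 to 5.65 M counts. The length and GC correction without the block and the minimum sum of 300 for all genes were added after seeing the data.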
